A study of Mus musculus with 4 samples.

Results

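A set of 9 genes that mark the entry of blood progenitors into the B lineage, and the rearrangement of antigen receptor genes there, was followed in mouse hematopoietic stem/progenitor cells (HSPC) purified by FACS. They were Ebf1, Pax5, Vpreb1, Igll1, Dntt, Rag1, Rag2, Cd79a and Cd79b, taken by symbol from the 24015 genes in the count tables. All 9 members were found, and all 9 were among the 14191 genes with enough reads to be tested. There were 4 RNA-seq libraries, 2 of the control group and 2 of the caNIK group. The caNIK group carries the Rosa-loxp-STOP-loxp-NIK allele, which encodes a mutant NIK that TRAF3 cannot target, together with Vav-iCre, which removes the stop in blood cells generally. The labels call the other group control and say no more of its genotype, and strain, age, tissue, sort markers and the number of animals are likewise unstated. Replicates are not said to be separate animals, and the p-values here therefore reflect only how much these samples varied, possibly for technical reasons.

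As background, B cell development starts when lymphoid progenitors switch on the transcription factor EBF1, which with E2A and then PAX5 fixes the B cell fate. RAG1 and RAG2 together cut the antigen receptor loci, and terminal deoxynucleotidyl transferase (TdT, from Dntt) adds untemplated bases at the joints. A rearranged heavy chain is then tested with the surrogate light chain, made of VpreB (Vpreb1) and lambda 5 (Igll1), on a receptor that signals through CD79a and CD79b. Some of these genes, Dntt and Rag1 above all, are already transcribed in lymphoid-primed progenitors before the B or T fate is fixed. NIK starts the non-canonical NF-kB pathway, which mature B cells use downstream of the BAFF receptor.

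Library totals lay between 18574452 and 23162766 counts, so that 1 read stood for 0.0426 to 0.0537 CPM (reads scaled to a common library size by edgeR's TMM method). Map3k14, which encodes NIK, stood at 30.2 and 25.1 CPM in control replicates 1 and 2 and at 177 and 192 CPM in caNIK replicates 1 and 2, higher in the libraries labelled caNIK. Markers of stem and progenitor cells were counted in all 4 libraries, with a summed level of 1993 to 2170 CPM in control and 1041 to 1378 CPM in caNIK over 10 genes.

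The start sites of the members are shown by the RefSeq promoters (GRCm38.p6, a later build than the mm9 of the count tables), since most of these genes were lower together in caNIK HSPC. Of the 9 members, 8 had an entry; Cd79b had none. In the 250 bases before each start, 2 motifs were searched on both strands: CAGGTG, an E-box that E proteins such as E2A bind, and CCCNNGGG, the core bound by EBF1. The motifs did not overlap in the members shown. CAGGTG was present for 4 members, Vpreb1, Igll1, Rag1 and Cd79a, and in 17.2% of all 32851 promoters. CCCNNGGG was present for 1 member, Igll1, and in 11.8% of all promoters. A match describes letters in the window and not a bound site. The 4 promoters with a match follow, 5′ to 3′ on the strand of the gene, with matches on either strand in capitals.
Vpreb1, chr16:16869256-16869505, minus strand: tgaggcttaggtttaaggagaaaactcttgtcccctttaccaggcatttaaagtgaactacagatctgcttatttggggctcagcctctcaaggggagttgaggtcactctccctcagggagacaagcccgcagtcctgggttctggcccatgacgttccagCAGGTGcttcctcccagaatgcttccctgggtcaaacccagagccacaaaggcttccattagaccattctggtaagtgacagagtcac
Igll1, chr16:16863986-16864235, minus strand: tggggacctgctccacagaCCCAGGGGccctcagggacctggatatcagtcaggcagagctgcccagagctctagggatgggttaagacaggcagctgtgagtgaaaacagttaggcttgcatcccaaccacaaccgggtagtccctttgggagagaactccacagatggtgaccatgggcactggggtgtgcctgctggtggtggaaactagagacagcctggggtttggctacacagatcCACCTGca
Rag1, chr2:101649533-101649782, minus strand: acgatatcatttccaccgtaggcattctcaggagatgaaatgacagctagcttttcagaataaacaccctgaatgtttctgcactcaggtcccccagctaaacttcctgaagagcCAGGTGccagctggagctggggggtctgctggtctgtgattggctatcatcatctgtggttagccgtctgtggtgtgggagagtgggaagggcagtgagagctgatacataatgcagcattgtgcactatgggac
Cd79a, chr7:24897247-24897496, plus strand: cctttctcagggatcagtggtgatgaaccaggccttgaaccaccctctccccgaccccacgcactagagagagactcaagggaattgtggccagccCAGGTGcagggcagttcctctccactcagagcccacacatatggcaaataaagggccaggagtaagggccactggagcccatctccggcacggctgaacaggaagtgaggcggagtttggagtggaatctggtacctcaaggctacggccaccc
The E-box began 88 bases before the start in Vpreb1, 8 in Igll1 (as its reverse complement), 135 in Rag1 and 154 in Cd79a. The CCCNNGGG match of Igll1 began 231 bases before its start.

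Of the 9 members, 6 fell in caNIK HSPC, 0 rose and 3 did not pass edgeR's quasi-likelihood test at an adjusted p under 0.05. At an unadjusted p under 0.05, 8 members were lower and 1, Cd79b, was higher, beside 2178 and 2898 of the 14191 genes tested. DESeq2 called 7 members lower and 0 higher at its adjusted p, beside 1470 and 2326 of all genes. The 6 that fell at edgeR's adjusted p were Vpreb1, Igll1, Rag1, Pax5, Ebf1 and Rag2. Over all 14191 genes tested, 8.21% were called lower and 13.8% higher. The median log2 fold change of the 9 was -2.81, beside 0.00 over all genes tested. Both caNIK libraries lay below both control libraries in 8 members, Dntt and Cd79a included, and in 31.6% of all genes tested. For Cd79b both lay above, as they did in 33.3% of genes. In bulk RNA, fewer cells of a type and less RNA per cell cannot be told apart. Only Vpreb1, Igll1 and Rag1 were called when caNIK replicate 2 was left out, which made 3 lower members; leaving out each of the other libraries gave 5 to 8.

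**Figure D1:**
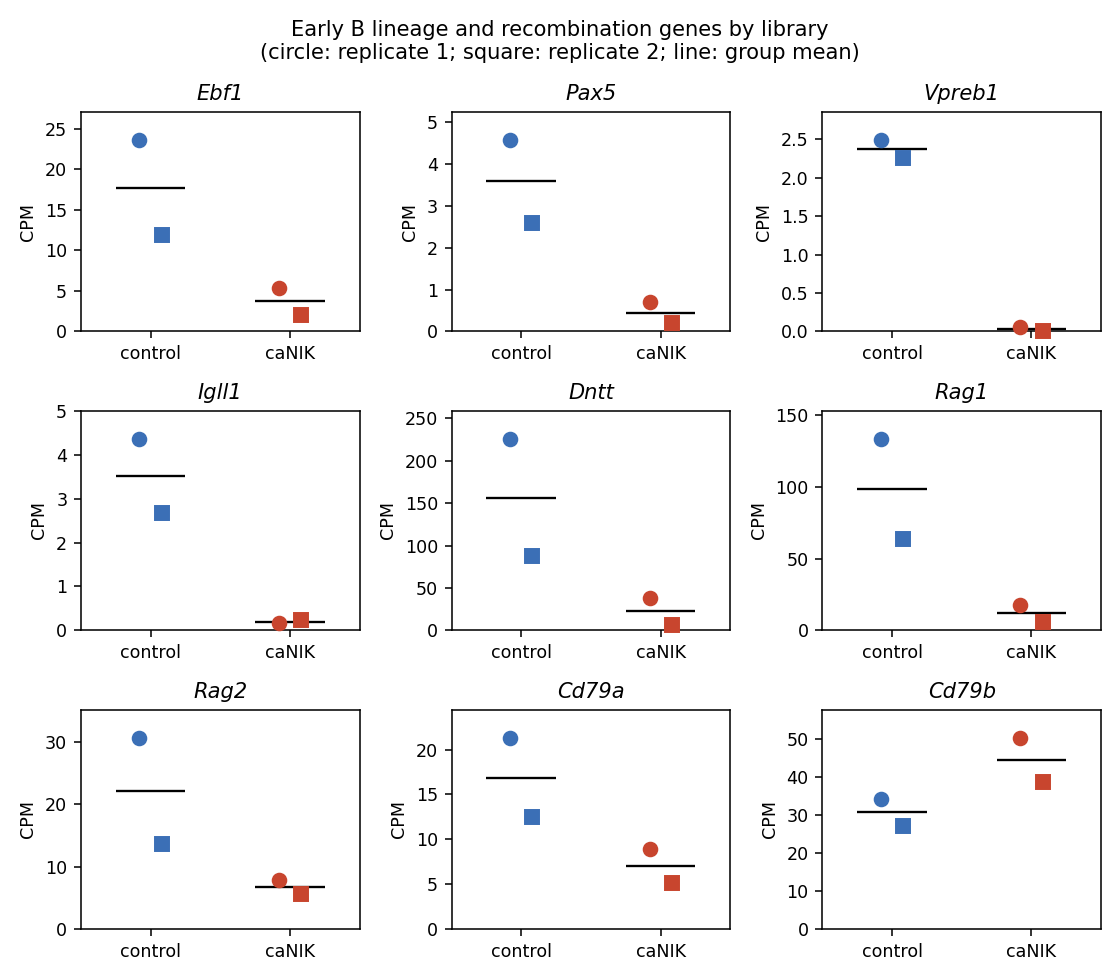
Level of each member in CPM (vertical axes, each from 0 and with its own scale) in the 2 control libraries (blue) and the 2 caNIK libraries (red). Circles are replicate 1, squares replicate 2 and lines the group mean; both caNIK points lie below both control points in 8 panels and above them for Cd79b.

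Both surrogate light chain genes fell. Vpreb1 was counted 48 and 53 times in control replicates 1 and 2 (2.49 and 2.26 CPM) and 1 and 0 times in caNIK replicates 1 and 2. Its transcripts were thus nearly absent from both caNIK libraries, whereas the control libraries lay close together. From the summed reads, the ratio of control to caNIK was 93.0, with an exact 95% counting interval of 16.3 to 3709. The log2 fold change was -6.23 ± 1.06 (SE; edgeR adjusted p = 0.0084). This interval covers counting error only.

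Igll1, which encodes lambda 5, was at 4.36 and 2.68 CPM in control and at 0.161 and 0.241 CPM in caNIK, from 84, 63, 3 and 5 reads. The groups were far apart relative to the difference within either. It fell by 4.08 ± 0.70 on the log2 scale (SE; edgeR adjusted p = 0.0089), to 5.71% of the control mean. Both genes passed in all 13 alternative analyses. Vpreb2, the close copy of Vpreb1, had 16 and 16 control reads and 7 and 0 caNIK reads and did not pass (log2 fold change -2.01 ± 1.25, adjusted p = 0.30). The longest protein-coding transcripts of Vpreb1 and Vpreb2 were identical at 97.4% of 759 aligned bases in GENCODE M21. The labels do not say how reads matching several places were counted, so the split of reads between this pair is uncertain. Exons of Top3b overlap 108 bases of Vpreb1 exons on the other strand.

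Both recombinase genes fell. Rag1 was at 133 and 63.6 CPM in control replicates 1 and 2 and at 17.9 and 5.74 CPM in caNIK replicates 1 and 2. Control replicate 1 was thus above replicate 2 by 2.09-fold and caNIK replicate 1 above replicate 2 by 3.13-fold, and the groups did not overlap. Rag1 fell by 3.06 ± 0.58 on the log2 scale (SE; edgeR adjusted p = 0.012) and passed in all 13 alternatives.

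Rag2, the partner needed for cutting, was at 30.5 and 13.7 CPM in control and at 7.89 and 5.64 CPM in caNIK. It fell by 1.71 ± 0.43 (SE, edgeR adjusted p = 0.034). The call was lost without control replicate 1, without caNIK replicate 1 and without caNIK replicate 2. It was also lost with limma-voom (adjusted p = 0.070) and in a test against a 1.5-fold change (glmTreat adjusted p = 0.078). Reads of Rag1 per read of Rag2 were 4.36 and 4.65 in the control libraries and 2.27 and 1.02 in the caNIK libraries. This ratio needs no scaling between libraries, and the groups did not overlap in it; with 2 against 2 libraries an exact permutation test cannot give a two-sided p below 0.33. Exons of the gene model B230118H07Rik overlap 80 bases of Rag1 exons and 208 bases of Rag2 exons in GENCODE M21.

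Dntt had the most reads of the 9 genes over the 4 libraries. It was at 225 and 87.3 CPM in control replicates 1 and 2 and at 38.6 and 6.27 CPM in caNIK replicates 1 and 2. Both caNIK libraries lay below both control libraries, but replicates differed by 2.58-fold in control and by 6.15-fold in caNIK. The log2 fold change was -2.81 ± 0.82 (SE; edgeR adjusted p = 0.053), just short of the threshold. Of the 13 alternatives, 7 called it lower, with adjusted p from 1.7e-07 to 0.09 and a log2 fold change of -4.63 to -1.99.

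Among the transcription factors, Ebf1 was at 23.6 and 11.9 CPM in control and at 5.37 and 2.02 CPM in caNIK. Replicate 1 was the higher library of each group, and the groups did not overlap. Ebf1 fell by 2.26 ± 0.56 on the log2 scale (SE; edgeR adjusted p = 0.031). It no longer passed without caNIK replicate 2, nor in a test against a 1.5-fold change (glmTreat adjusted p = 0.058).

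Pax5, which keeps B cells committed, was the scarcest of the 9 per length in control, with 88 and 61 control reads and 13 and 4 caNIK reads. These were 4.56 and 2.60 CPM in control and 0.698 and 0.193 CPM in caNIK. Pax5 fell 8.02-fold in the fit (SE 0.78 on the log2 scale, edgeR adjusted p = 0.036). The call was lost without control replicate 1 or caNIK replicate 2. It was also lost in a test against a 1.5-fold change (glmTreat adjusted p = 0.062). Exons of 2 models on the other strand overlap 761 bases of its exons, and the labels do not say whether counting used strand.

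The genes of the receptor's signalling chains lay on opposite sides of control, neither past the threshold. Cd79a was at 21.3 and 12.5 CPM in control replicates 1 and 2 and at 8.97 and 5.11 CPM in caNIK replicates 1 and 2. The groups did not overlap, yet Cd79a did not pass (log2 fold change -1.26 ± 0.41, SE; edgeR adjusted p = 0.072). It passed in 5 of 13 alternatives, among them those without control replicate 2 and without caNIK replicate 1.

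Cd79b was at 34.3 and 27.1 CPM in control and at 50.2 and 38.8 CPM in caNIK, so that caNIK libraries were here the higher ones. It did not pass (log2 fold change 0.53 ± 0.22, SE; edgeR adjusted p = 0.13). Reads of Cd79a per read of Cd79b were 0.619 and 0.460 in control and 0.179 and 0.132 in caNIK. That ratio did not overlap between groups, under the same limit of the exact permutation test (smallest two-sided p 0.33).

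**Figure D2:**
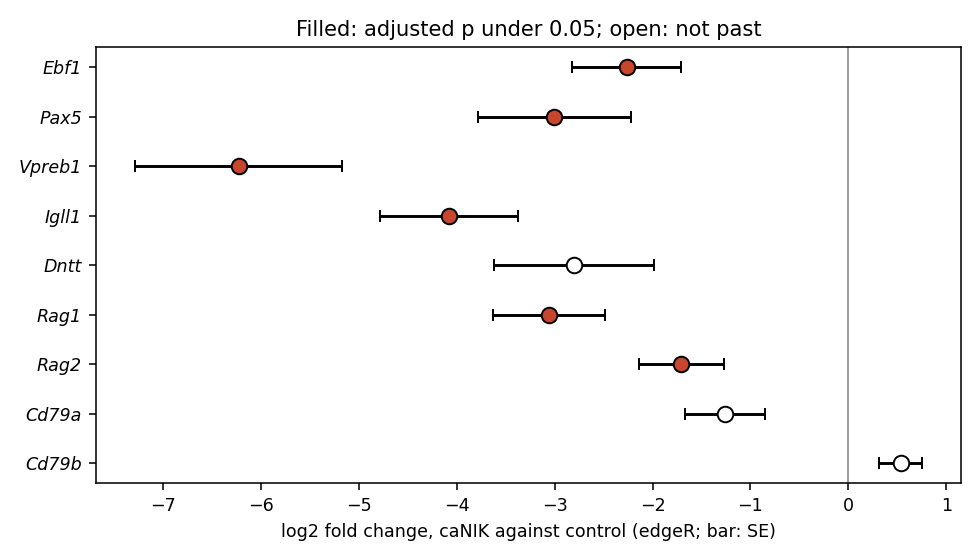
Log2 fold change of each member, caNIK against control (horizontal axis; bars are SE). Filled points passed at an adjusted p under 0.05 and open points did not; values run from -6.23 for Vpreb1 to 0.53 for Cd79b.

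Set per length, as CPM divided by kilobases of protein-coding exons in GENCODE M21 (RPKM), the genes ranked as follows. In control HSPC the mean level was 73.4 for Dntt, 21.5 for Cd79b, 14.9 for Rag1, 11.6 for Cd79a and 6.46 for Rag2. Below these came Igll1 at 4.05, Vpreb1 at 3.10, Ebf1 at 2.97 and Pax5 at 0.412 RPKM. Taken as ranges over the 2 control libraries, only Dntt at the top and Pax5 at the bottom were separate from their neighbours. Within each control library the same order held, except that Ebf1 (3.94) lay above Vpreb1 (3.25) in replicate 1. In caNIK HSPC, Cd79b led with 31.1 RPKM and stood apart from Dntt at 10.5. The ranges of Dntt and Cd79a (4.83) overlapped, as did those of Rag2 (1.98) and Rag1 (1.79). Those of Rag1 and Ebf1 (0.618) overlapped too, though Rag1 was the higher within each library (2.71 against 0.897, and 0.868 against 0.338). Igll1 was at 0.231 RPKM, apart from Ebf1 above it and Pax5 (0.0512) below it. The ranges of Pax5 and Vpreb1 (0.0351) overlapped, though Pax5 was the higher within each library.

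The members also differed between replicates, mostly in 1 direction. In control, replicate 1 lay above replicate 2 in 9 of 9 members, by a median of 0.75 on the log2 scale, beside 0.00 over all genes tested. In caNIK, replicate 1 lay above replicate 2 in 8 of 9, by a median of 0.76, beside 0.03 over all genes. Igll1 was the exception. Markers of T cells, which share Rag1, Rag2 and Dntt in the thymus, moved with the replicates in the same way: their summed level over 15 genes was 185 and 90.7 CPM in control replicates 1 and 2 and 421 and 212 CPM in caNIK replicates 1 and 2. Of the 15, 1 was called higher, Tcf7, and 14 did not pass, and each was counted in at least 1 library. Tcf7 was at 18.7 and 13.3 CPM in control and at 175 and 113 CPM in caNIK. Without it the sums were 166 and 77.4 CPM in control and 246 and 99.1 CPM in caNIK, and the groups overlapped. The replicate shift was not particular to T cell markers. Replicate 1 was above replicate 2 in 8 of 10 NK cell markers in control and 10 of 10 in caNIK. For stem and progenitor markers the counts were 6 of 10 and 10 of 10. They were 1 and 3 of 10 for monocyte and macrophage markers, and 1 and 2 of 10 for neutrophil and granule markers. For erythroid markers they were 0 of 8 in both groups.

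Other cell type markers also moved with the groups, and their part in the results was not tested. Their calls stand beside 13.8% higher and 8.21% lower over all genes tested. Summed levels in control and caNIK were 653 to 1212 and 3207 to 4811 CPM for 8 erythroid markers, of which 4 were called higher. For 10 neutrophil and granule markers the sums were 1267 to 3119 and 361 to 454 CPM, led by Mpo in control (1038 and 2503 CPM). Of these 10, however, 5 were called higher (Ltf, Camp, Ngp, S100a8 and S100a9) and 3 lower (Mpo, Prtn3 and Elane), and without Mpo the sums were 229 to 616 and 299 to 388 CPM. The range was 39.8 to 62.4 and 65.9 to 177 CPM for 10 NK cell markers (3 higher), and 109 to 161 and 231 to 436 CPM for 10 monocyte and macrophage markers (1 higher). For 14 dendritic cell markers it was 666 to 803 and 336 to 565 CPM. Klk1 and Cd209a were at 0 in caNIK and were not tested. Their control reads in replicates 1 and 2 were 7 and 0, and 8 and 11. Of the 12 tested genes of this list, 6 were called higher, Ly6d among them, and 1 lower, Flt3, which progenitors also express. Flt3 alone was at 593 and 472 CPM in control and at 113 and 58.3 CPM in caNIK. It made up most of the control sums, so the lower caNIK sums do not describe the list as a whole. No marker of these lists was at 0 in all 4 libraries.

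**Figure D3:**
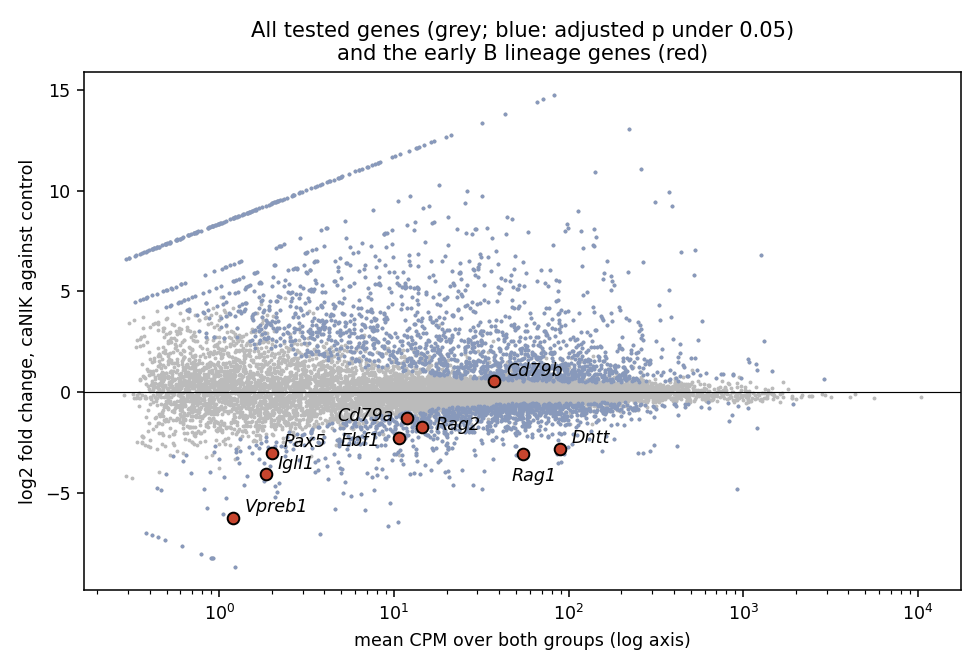
Log2 fold change, caNIK against control, of every tested gene (vertical axis) against its mean CPM (horizontal log axis). Called genes are blue, genes that did not pass grey and the 9 members red; 8 members lie below the zero line and Cd79b (0.53) lies above it.

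Regulators of the B lineage outside the 9 genes did not fall as a group. Of 26 tested, 4 rose, 3 fell and 19 did not pass, beside 13.8% called higher and 8.21% lower over all genes tested. Their median was 0.00 on the log2 scale, as over all genes tested. Spib, an ETS factor of B cells and plasmacytoid dendritic cells, rose from 2.70 and 1.87 CPM to 148 and 159 CPM. Its log2 fold change was 6.08 ± 0.24 (SE; edgeR adjusted p = 5.5e-05). Id2, an inhibitor of E proteins, was at 9.91 and 6.14 CPM in control replicates 1 and 2 and at 83.1 and 37.7 CPM in caNIK replicates 1 and 2. It rose by 2.92 ± 0.43 (SE; edgeR adjusted p = 0.0051).

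The other risers were Pou2af1, the B cell coactivator OCA-B (2.71 ± 0.56, SE), and Irf4, a factor of pre-B and plasma cells (2.11 ± 0.59, SE). Irf4 lost its call without caNIK replicate 1. The 3 that fell were Runx1, a stem cell and lymphoid factor (-0.80 ± 0.16), Pou2f2, which encodes OCT2 (-1.11 ± 0.25), and Spi1, which encodes PU.1 (-0.59 ± 0.16). Each lost its call without control replicate 2, Spi1 and Pou2f2 also without caNIK replicate 2 and Spi1 also without control replicate 1. Without caNIK replicate 1 there were 7 lower regulators, and without caNIK replicate 2 there was 1. Tcf3, which encodes the E2A proteins and was named after its values were seen, was at 276 and 352 CPM in control and at 401 and 502 CPM in caNIK (log2 fold change 0.52 ± 0.19, adjusted p = 0.095). Foxo1, an activator of the Rag genes and named likewise, was at 34.3 and 28.7 CPM in control and at 34.9 and 41.5 CPM in caNIK and did not pass (adjusted p = 0.36).

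Genes of lymphoid priming were followed with those of the interleukin-7 receptor system, which carries the main growth signal of early B cells in mice. Their median was -0.70. Of 18 tested, 5 were called lower, 2 higher and 11 neither, beside 8.21% lower and 13.8% higher over all genes tested. The lower ones were Cd93, a surface marker of early progenitors and young B cells, Flt3, the receptor that primes the lymphoid fate, Cd27, the chromatin organiser Satb1, and Crlf2, a chain of the TSLP receptor. Cd93 went from 479 and 411 CPM to 74.1 and 34.4 CPM (log2 fold change -3.04 ± 0.36, SE; edgeR adjusted p = 0.0021). Without caNIK replicate 1 the list held 8 lower genes. Il2rg, the common cytokine receptor chain that pairs with the interleukin-7 receptor, rose from 111 and 81.7 CPM to 454 and 388 CPM (2.13 ± 0.20, SE). Il7r itself, named after its values were seen, was at 33.8 and 17.4 CPM in control and at 78.0 and 29.0 CPM in caNIK. The groups overlapped, and it did not pass (1.06 ± 0.50, SE; adjusted p = 0.18).

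The other gene that rose was Ly6d, a marker of B cell-biased lymphoid progenitors that is also on the list of dendritic cell markers, where Bst2, Xcr1, Itgax, Zbtb46 and Batf3 were called higher too. It was at 2.49 and 3.15 CPM in control and at 135 and 61.6 CPM in caNIK (edgeR adjusted p = 0.00069).

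**Figure D4:**
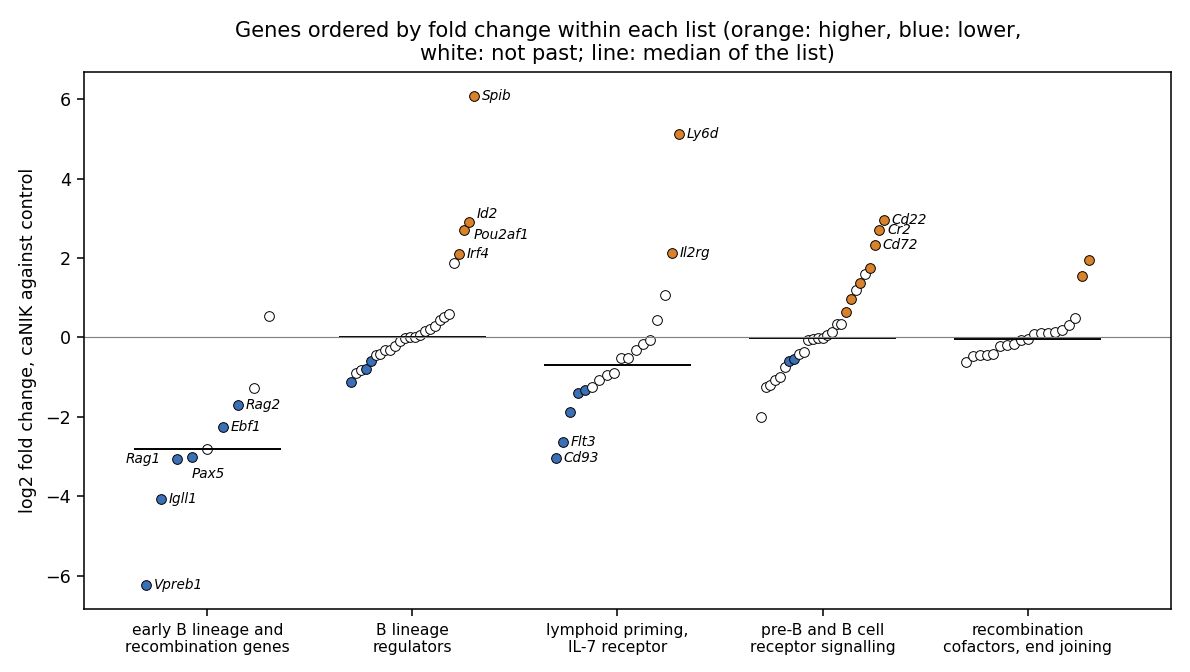
Log2 fold change, caNIK against control (vertical axis), of the 9 members and of the genes of 4 related lists, ordered within each list. Orange genes were called higher, blue ones lower and white ones did not pass, and lines are list medians (-2.81, 0.00, -0.70, 0.00 and -0.04 from left to right).

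Signalling genes of the pre-B and B cell receptors held 7 higher, 2 lower and 18 uncalled members of 27 tested. Their median was 0.00, and over all genes tested 13.8% were called higher and 8.21% lower. Bcl10, an adaptor on the way from the receptor to NF-kB, rose from 31.9 and 30.2 CPM to 75.6 and 86.4 CPM (log2 fold change 1.38 ± 0.16, SE; edgeR adjusted p = 0.002). Cd72, an inhibitory B cell coreceptor, rose by 2.34 ± 0.29 and Prkcb, the kinase PKC beta, by 1.76 ± 0.31 (SE). The 2 lower genes were the kinase gene Btk (-0.54 ± 0.14, SE) and the exchange factor gene Vav1 (-0.58 ± 0.16, SE). Both lost the call without either control library, and Vav1 also without caNIK replicate 2. Without caNIK replicate 1, 4 members were higher and 6 lower, and without caNIK replicate 2, 1 was lower.

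Among genes named after their values were seen, Cr2 and Cd22, surface genes of later B cells, rose by 2.71 ± 0.51 and 2.95 ± 0.73 (SE; edgeR adjusted p = 0.012 and 0.03). Cd22 lost its call without caNIK replicate 1. Blnk, the adaptor below the pre-B receptor, was at 16.3 and 5.45 CPM in control and at 7.62 and 1.54 CPM in caNIK. Its groups overlapped and it did not pass (-1.25 ± 0.80, SE; adjusted p = 0.32).

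The ubiquitous partners of the recombinase, which shape and rejoin the cut ends, were mostly uncalled. Of 19 tested, 2 rose, 0 fell and 17 did not pass, beside 13.8% called higher and 8.21% lower over all genes tested. The median was -0.04. At an unadjusted p under 0.05, 4 of the 19 were lower, beside 2178 of all 14191 genes tested. DESeq2 called 3 cofactors lower at its adjusted p, beside 1470 of all genes. Polm, a polymerase of the same family as TdT, rose from 4.20 and 4.90 CPM to 16.2 and 18.8 CPM (log2 fold change 1.94 ± 0.30, SE; edgeR adjusted p = 0.0059). Lig4, the ligase that seals the joints, was at 6.22 and 5.96 CPM in control and at 23.4 and 12.1 CPM in caNIK (1.54 ± 0.38, SE; adjusted p = 0.031), a call lost without caNIK replicate 1.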

How the data were processed

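Per the file headers, the authors deposited 1 table per library with a read count for each gene symbol, whole numbers without normalization. The build mm9 and the tools TopHat2 2.1.0, featureCounts 1.5.0, FastQC and DESeq2 1.10.1 are named in the submitters' processing notes, without their roles. Annotation release, strand setting and treatment of multiply matching reads are unstated.

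The counts were tested with edgeR 4.0.16 in R 4.3.3: filterByExpr by group, TMM scaling, and a quasi-likelihood fit and two-sided F test with group as the only term, adjusted by Benjamini-Hochberg over the 14191 genes tested, with a threshold of 0.05. SE comes from the F statistic. Groups and replicate numbers came from the sample titles. CPM used TMM-scaled totals. The test was tried on simulated data. Alternatives were DESeq2 1.42.0, limma-voom (limma 3.58.1), glmTreat at 1.5-fold, other scalings and filters, the replicate number as a term, and each library left out. For genes of the related lists, lost calls are named for left-out libraries only. Some of those genes also lost the call under other alternatives.

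The members and lists were chosen with earlier results of these data known. Named were all members, the 3 genes of smallest p per list, and others needed to name counts of 5 or fewer; exceptions are marked. Per-length levels and overlaps used GENCODE M21 (GRCm38), so they may differ from the authors' gene models. Promoters came from RefSeq. Of the listed symbols, Paxx, Jchain (listed also as Igj) and Adgre1 (also as Emr1) matched no row. The result of a further listed gene is not reported here.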

Additional observations from a re-analysis of the deposited data

How the results depend on the processing

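All 9 members kept their direction under all 13 alternatives. Vpreb1, Igll1 and Rag1 passed in each of the 13, Ebf1 in 11, Pax5 in 10, Rag2 in 8, Dntt in 7, Cd79a in 5 and Cd79b in 1. Leaving out each library in turn gave 3 to 8 lower members. For the lower genes of the lists the same ranges were 1 to 7 (regulators), 6 to 8 (lymphoid priming), 1 to 6 (receptor signalling) and 0 to 1 (recombination cofactors), and for the higher receptor signalling genes 4 to 8. A test against a 1.5-fold change called 458 genes lower over all, with 3 lower members, 0 lower regulators, 3 lower lymphoid priming genes, 4 higher and 0 lower receptor signalling genes and 1 higher cofactor. DESeq2 called 5 regulators, 8 lymphoid priming genes, 4 receptor signalling genes and 3 cofactors lower, and limma-voom called 1 cofactor higher. Keeping every gene with at least 1 read in any library gave 5, 8 and 4 lower genes for the first 3 lists. Cofactors called lower numbered 3 with upper-quartile factors and 2 with library totals only. The cause of these differences was not tested.

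With the replicate number as a block, 2494 of all 14191 genes tested were higher and 1766 lower. The members held 8 lower and 1 higher, Cd79b (edgeR adjusted p = 0.043). The lists then held 5 lower regulators, 4 higher and 10 lower lymphoid priming genes, 5 lower receptor signalling genes and 3 lower cofactors. Il7r (edgeR adjusted p = 0.0064), Blnk (0.021) and Tcf3 (0.022) passed with this block, though not in the main test. Without the block, Tcf3 also passed with DESeq2 (adjusted p = 0.045). With at least 1 read in any library as the filter, Tcf3 (edgeR adjusted p = 0.048) and Il7r (0.035) passed as well. The labels do not say what a replicate number shares; deviations of the same-numbered libraries from their group means correlated at 0.25 across genes, which are not independent replicates. At the depth of these libraries, Vpreb1, Igll1 and Pax5 rested on 17 or fewer caNIK reads in all.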

Other observations

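Of 15 tested markers of mature B and plasma cells, 6 were higher in caNIK HSPC and 1 lower, beside 13.8% and 8.21% of all genes. The median log2 fold change of these markers was 1.36. Their summed level over 17 genes was 297 and 271 CPM in control and 868 and 572 CPM in caNIK. Tnfrsf17 was at 0 in both caNIK libraries, but it had only 0 and 3 reads in control and was not tested. Ciita, the class II transactivator, which other antigen-presenting cells also use, made up much of the caNIK sum with 332 and 228 CPM, against 0.519 and 1.49 CPM in control. Igj, the joining chain of secreted antibodies, was at 4.41 and 1.70 CPM in control and at 81.2 and 50.9 CPM in caNIK (log2 fold change 4.45 ± 0.48, SE; edgeR adjusted p = 0.0014). Both were named after their values were seen, and Cr2, Cd22 and Cd72 are on this list and on that of receptor signalling.

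Of the 10845 tested genes with a mean of at least 5 CPM, those whose centred log2 profile over the 4 libraries lay nearest to a member were found by Euclidean distance. The gene nearest to Dntt was Rag1 (distance 0.72), followed by Cyp2j6, which was also nearest to Rag1 (0.27). The nearest genes were Gfra1 for Ebf1 (0.14), P2ry14 for Rag2 (0.31), Crem for Cd79a (0.12) and Mospd2 for Cd79b (0.040). With 4 libraries such distances describe shape only.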
